A study of Mus musculus with 2 samples.

Results

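The genes examined were 31 type I interferon-stimulated genes, picked by symbol, among the 27998 genes of the deposited matrices: Ifit1, Ifit2, Ifit3, Isg15, Usp18, Oas1a, Oas2, Oas3, Oasl1, Oasl2, Irf7, Irf9, Stat2, Ddx58, Ifih1, Dhx58, Zbp1, Bst2, Ifi27l2a, Isg20, Mx1, Rtp4, Rsad2, Xaf1, Ifi47, Ifi35, Ifi44, Parp14, Trim30a, Samhd1 and Slfn5. All 31 were found, and each had at least 1 UMI (unique molecular identifier, the tag that marks 1 captured transcript) in both libraries. CD45.1+ leukocytes had been isolated by flow sorting from islets of female NOD/ShiLtJ mice, a strain that develops autoimmune diabetes without treatment, at 7 weeks and at 12 weeks of age. Each age was represented by 1 10x Chromium 3′ library, and the number of mice behind a library is not given in the labels. Filters left 1099 cells of the 7 week library (median depth 5634 UMIs) and 2741 of the 12 week library (median depth 4932 UMIs). These cells held 19356 and 43688 UMIs of the 31 genes.

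Type I interferons are cytokines that infected or stressed cells secrete, and plasmacytoid dendritic cells (pDCs) are their most productive source. They bind the receptor built from IFNAR1 and IFNAR2, which activates the kinases JAK1 and TYK2 and leads to a complex, with STAT2 and IRF9 among its subunits, that binds interferon-stimulated response elements (ISREs) in target promoters. The targets include RNA-binding antiviral proteins, sensors of viral nucleic acid, and the pathway's own transcription factors, and an interferon signature in blood or islets is a recurrent topic in the study of autoimmune diabetes.

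Promoters are shown for 6 members. These include the 3 genes that choose the interferon-responsive cells described further on (Ifit1, Ifit3 and Isg15), and Bst2, the member that sets pDCs apart. The other 2, Rsad2 and Oas3, had the steepest enrichment in the interferon-responsive cells by the lower of the 2 library ratios. Sequences are the 250 bases before the annotated start, on the gene's own strand from 5′ to 3′, from RefSeq on build GRCm38.p6, and capitals mark matches to the ISRE core (GAAA, any 2 bases, GAAA) on either strand, where overlapping matches run together. The windows lie at chr19:34640639-34640888 (plus strand) for Ifit1, chr19:34583279-34583528 (plus strand) for Ifit3, chr4:156200819-156201068 (minus strand) for Isg15, chr12:26456453-26456702 (minus strand) for Rsad2, chr5:120777660-120777909 (minus strand) for Oas3 and chr8:71537473-71537722 (minus strand) for Bst2.
Ifit1: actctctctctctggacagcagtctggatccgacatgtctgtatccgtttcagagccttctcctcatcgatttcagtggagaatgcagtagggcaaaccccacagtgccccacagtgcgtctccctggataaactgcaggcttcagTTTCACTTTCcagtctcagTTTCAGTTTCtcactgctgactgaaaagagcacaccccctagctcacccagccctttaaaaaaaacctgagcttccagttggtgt
Ifit3: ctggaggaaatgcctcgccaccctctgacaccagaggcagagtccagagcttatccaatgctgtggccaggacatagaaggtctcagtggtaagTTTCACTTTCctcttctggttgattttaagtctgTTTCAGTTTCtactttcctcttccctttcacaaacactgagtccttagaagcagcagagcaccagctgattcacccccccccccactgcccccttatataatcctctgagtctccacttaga
Isg15: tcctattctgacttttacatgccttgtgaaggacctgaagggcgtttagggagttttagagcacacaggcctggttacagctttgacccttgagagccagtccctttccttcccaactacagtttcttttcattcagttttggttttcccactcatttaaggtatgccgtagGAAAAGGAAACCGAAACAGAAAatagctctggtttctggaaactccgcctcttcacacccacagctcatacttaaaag
Rsad2: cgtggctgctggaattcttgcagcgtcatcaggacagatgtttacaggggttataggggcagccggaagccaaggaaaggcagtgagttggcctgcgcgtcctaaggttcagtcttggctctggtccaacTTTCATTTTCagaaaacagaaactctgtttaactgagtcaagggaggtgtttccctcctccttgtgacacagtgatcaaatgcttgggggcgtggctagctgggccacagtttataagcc
Oas3: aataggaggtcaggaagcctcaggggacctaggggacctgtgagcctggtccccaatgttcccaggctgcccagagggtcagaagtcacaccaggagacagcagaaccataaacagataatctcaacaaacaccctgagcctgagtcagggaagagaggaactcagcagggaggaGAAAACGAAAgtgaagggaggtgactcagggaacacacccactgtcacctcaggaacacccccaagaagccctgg
Bst2: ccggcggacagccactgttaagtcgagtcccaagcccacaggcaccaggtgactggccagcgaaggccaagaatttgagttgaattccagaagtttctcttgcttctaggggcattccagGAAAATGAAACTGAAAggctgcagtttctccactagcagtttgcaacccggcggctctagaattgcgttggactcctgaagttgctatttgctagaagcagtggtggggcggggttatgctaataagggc
The first matching base lay 104 and 85 bases before the start in Ifit1, and 156 and 122 bases before it in Ifit3. Isg15 had 3 overlapping matches and Bst2 had 2, while Rsad2 and Oas3 had 1 each. Over the window from 250 bases before to 50 bases after the start, 12 of the 23 members with a RefSeq promoter entry (52.2%) held the core, against 1079 of 27025 genes (3.99%). The other 6 with a match were Stat2, Oas1a, Ddx58, Ifih1, Trim30a and Slfn5. For the gamma-activated site TTCNNNGAA, an element of interferon gamma target promoters, 6 of 23 members (26.1%) and 9.55% of genes had a match. A match describes letters in a window and is not evidence of binding, and 8 members had no promoter entry.

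Cells were assigned to 6 classes by UMIs of a few gate genes, none of which is a member. CD8 T cells (at least 2 UMIs of Cd8a plus Cd8b1, no Cd4) numbered 168 at 7 weeks and 450 at 12 weeks, and CD4 T cells (at least 1 UMI of Cd4, none of Cd8a or Cd8b1) 339 and 809. B cells (at least 2 Cd79a UMIs) numbered 168 and 626, macrophages (at least 10 UMIs of C1qa, C1qb and C1qc together) 7 and 30, dendritic cells (at least 10 UMIs each of Cst3 and H2-Aa) 54 and 145, and pDCs (at least 3 Siglech UMIs) 24 and 42. A further 303 and 562 cells met no gate. Markers outside the gates were checked. The summed B cell marker list stood at 3416 and 3959 CPM (counts per 1000000 UMIs of the class) in B cells and at 18.0 to 74.4 CPM elsewhere, and the pDC list at 3769 and 5779 CPM in pDCs. The gates were not pure, since the T cell list reached 510 CPM in dendritic cells and 979 CPM in pDCs at 7 weeks, against 98.9 and 113 CPM at 12 weeks. In B cells the T cell list stood at 495 and 364 CPM and the pDC list at 592 and 663 CPM. Of the pDC list, Ccr9 and Cox6a2 were at 0 in B cells at 7 weeks. Whether that sum came from pDCs or from B cells was not tested. Pancreatic endocrine transcripts summed to 51.8 and 15056 CPM in dendritic cells at 7 and 12 weeks and the macrophage list to 1964 and 2475 CPM there. The plasma cell list stood at 3256 and 2847 CPM in B cells.

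**Figure D1:**
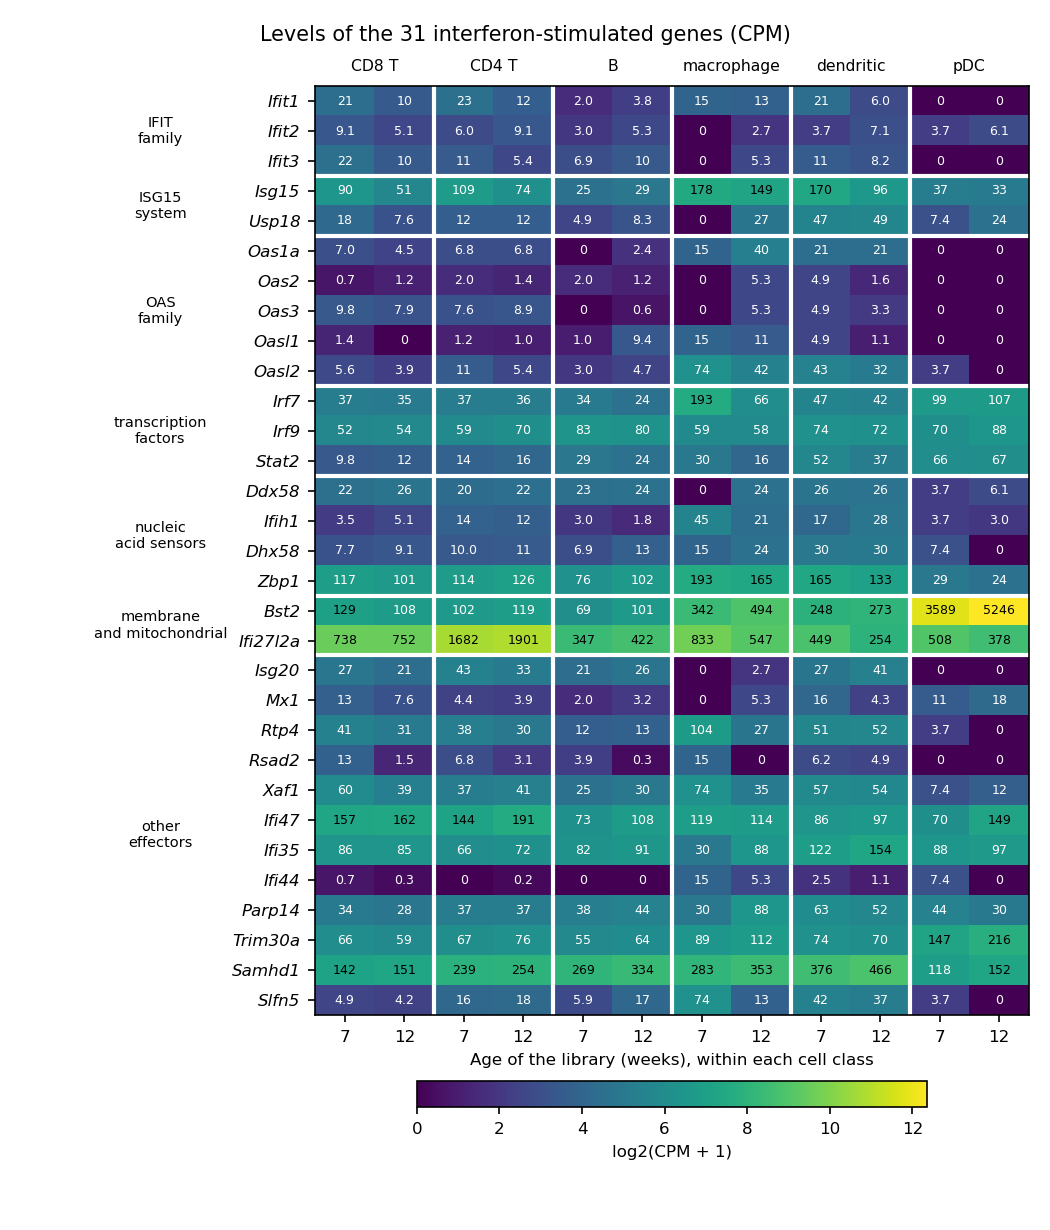
Level of each of the 31 members (rows, grouped by role) in 6 cell classes at 7 and 12 weeks (columns, 1 library per age); the printed value is the CPM and the colour its log2(CPM + 1). Bst2 in pDCs (3589 and 5246 CPM) and Ifi27l2a in CD4 T cells (1682 and 1901 CPM) stand above every other value, and pDCs list 8 members at 0 at both ages.

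Most of the interferon-stimulated signal came from a handful of genes, and their order depended on the class. Ifi27l2a, which encodes a small mitochondrial and nuclear envelope protein, led in T cells and B cells: its levels at 7 and 12 weeks were 1682 and 1901 CPM in CD4 T cells, 738 and 752 CPM in CD8 T cells, and 347 and 422 CPM in B cells. It made up 57.2% and 59.3% of all member UMIs in CD4 T cells, and 37.9% and 41.9% in CD8 T cells. Bst2 (tetherin, which holds budding virus at the cell surface and is a surface marker of mouse pDCs) led in pDCs with 3589 and 5246 CPM, 72.8% and 78.8% of their member UMIs. In dendritic cells Ifi27l2a led at 7 weeks (449 CPM) and Samhd1, a nucleotide hydrolase that restricts retroviruses, at 12 weeks (466 CPM, after 376 CPM at 7 weeks). The order of the classes by summed level was largely set by these genes: pDCs stood at 4929 and 6659 CPM, CD4 T cells at 2938 and 3205, macrophages at 2841 and 2557, dendritic cells at 2361 and 2152, CD8 T cells at 1949 and 1795, and B cells at 1303 and 1597. The ranges of neighbouring classes over the 2 libraries did not overlap, but the macrophage sum at 7 weeks rests on 191 UMIs from 7 cells. Without Ifi27l2a and Bst2, pDCs stood lower in that order, at 832 and 1035 CPM, below CD8 T cells at 7 weeks (1082 CPM) and above them at 12 weeks (935 CPM), while dendritic cells (1665 and 1624 CPM) and macrophages (1666 and 1516 CPM) led at both ages. UMIs of a 3′ library count transcript ends, so levels of different genes were not divided by gene length.

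Differences between classes were tested on the sums per class and library with edgeR's quasi-likelihood test, each class against the mean of the other 5 on the log scale, with the library as a term. Its replicates were the 2 libraries, which differ in age, so the spread holds the age difference as well, and 29 of the 31 members had enough UMIs (not Oas2 and Ifi44). Where nothing says that the libraries came from separate mice, these p-values measure only the spread between these libraries.

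Dendritic cells had the broadest set of higher members: 14 of 29 were higher (background 18% of 9506 genes) and 1 was lower (background 5.38%), and the median log2 difference was 0.96 against 0.07 over all genes. The 2-5A synthetase-like gene Oasl2, whose protein binds double-stranded RNA, had 43.2 CPM in the younger and 31.5 CPM in the older library against means of 19.6 and 11.3 CPM in the other classes (log2 difference 2.44, SE 0.29, edgeR adjusted p = 2.52e-07). Usp18, the protease that removes ISG15 from proteins and dampens IFNAR2 signalling, stood at 46.9 and 49.5 CPM against 8.37 and 15.7 CPM (log2 difference 1.93, SE 0.26, edgeR adjusted p = 2.07e-06). At both ages dendritic cells lay above that mean for both genes. The sensors of viral RNA Ifih1 (MDA5; 17.3 and 27.7 CPM) and Dhx58 (LGP2; 29.6 and 30.4 CPM) were also higher, by 1.93 and 1.69 on the log2 scale, as were Slfn5 (2.22), Samhd1 (0.99), Isg15 (1.02), Stat2 (0.96), Xaf1 (0.93), Ifi35 (0.80) and Zbp1 (0.75). Isg20, Oas1a and Rtp4 were higher by 2.79, 2.89 and 1.71, and by 1.28, 1.60 and 0.89 with pDCs left out, a class where Isg20 and Oas1a were listed at 0. Ifi27l2a was the member that was lower (449 and 254 CPM against 821 and 800 CPM, log2 difference -0.95). The calls of 14 of these 15 members held under 8 of 8 alternatives, and that of Zbp1 under 7.

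Macrophages showed 10 of 29 members higher (background 12%) and 0 lower (background 7.22%; 13 members had an unadjusted p under 0.05 in either direction), from 7 and 30 cells. Isg15, a ubiquitin-like modifier that is secreted as well, stood at 178 and 149 CPM against 86.1 and 56.7 CPM (log2 difference 1.58, SE 0.26, edgeR adjusted p = 4.74e-05). Oasl2 was at 74.4 and 42.5 CPM against 13.3 and 9.11 CPM, from 5 and 16 UMIs. Oas1a, an activator of the antiviral ribonuclease RNase L, was at 14.9 and 39.8 CPM against 6.96 and 6.98 CPM, and its 7 week value is 1 UMI. Irf7, the transcription factor that amplifies interferon alpha production, was at 193 and 66.4 CPM against 51.0 and 48.7 CPM. The others were Zbp1, Bst2, Ifih1, Parp14, Samhd1 and Rtp4. For Bst2 the call is on the mean of logs: its 342 and 494 CPM lay below the arithmetic mean of the other classes (827 and 1169 CPM), which pDCs raise. When cells meeting more than 1 gate were left out, 1 and 4 macrophages remained and 0 members were called, so these calls rest on cells that met another gate as well.

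**Figure D2:**
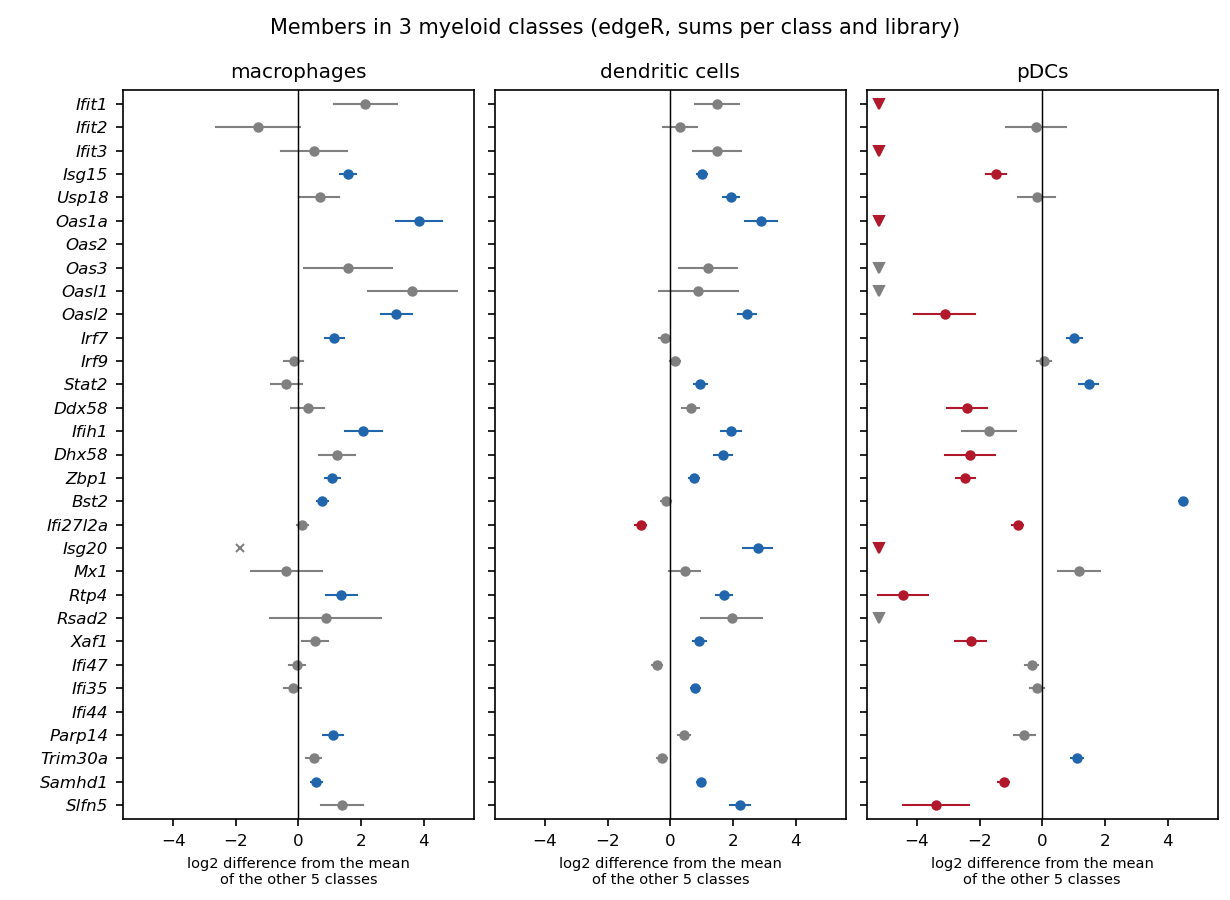
Fitted log2 difference of each tested member in macrophages, dendritic cells and pDCs from the mean of the other 5 classes (points, with 1 SE as lines); blue marks members higher and red members lower at an edgeR adjusted p under 0.05, grey the rest, a cross a value with no usable SE and a triangle a member listed at 0 in both libraries of the class, whose position has no size. Dendritic cells and macrophages have 14 and 10 blue points, and pDCs 4 blue and 14 red.

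In pDCs the members split. Bst2 was higher (3589 and 5246 CPM against 178 and 219 CPM, log2 difference 4.49, SE 0.13, edgeR adjusted p = 2.04e-19), and so were 3 others (4 of 29 in all, background 10.9%). These were Stat2, the transactivating subunit of the ISRE-binding complex (66.3 and 67.0 CPM against 26.7 and 20.9 CPM, log2 difference 1.48), Trim30a, a regulator of innate signalling (147 and 216 CPM against 70.3 and 75.9 CPM, log2 difference 1.11), and Irf7 (99.4 and 107 CPM against 69.7 and 40.7 CPM, log2 difference 1.02). Against these, 14 members were lower (background 5.58%), among them Ifit1, Ifit3, Isg20 and Oas1a, which were listed at 0 in both libraries. Zbp1, the sensor of Z-form nucleic acid, stood at 29.4 and 24.4 CPM against 133 and 125 CPM (log2 difference -2.45, SE 0.31), Samhd1 at 118 and 152 CPM against 262 and 312 CPM (-1.24) and Isg15 at 36.8 and 33.5 CPM against 114 and 79.8 CPM (-1.48). Rtp4, a chaperone of receptors, had 1 UMI in 24 cells and 0 in 42.

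A total of 8 members had no UMI in pDCs of either library: Ifit1, Ifit3, Isg20, Oasl1, Oas1a, Oas2, Oas3 and Rsad2. A count of 0 there allows up to 11.0 CPM at 7 weeks and 9.13 CPM at 12 weeks. For Isg20, an exonuclease that degrades RNA, the mean of the other classes was 23.6 and 24.8 CPM, above that limit. For Ifit1 it was 16.3 and 9.03 CPM, so at 12 weeks the depth does not separate pDCs from the rest. The same holds for Ifit3 at both ages and for Oas1a at 7 weeks, where that mean lay under the limit. The third transcription factor gene, Irf9, stood at 69.9 and 88.3 CPM in pDCs against 65.5 and 66.9 CPM and did not pass. When cells meeting more than 1 gate were left out (14 and 19 pDCs), 4 members were called lower in place of 14, and the higher call of Irf7 was lost.

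In CD4 T cells 6 of 29 members were higher (background 18.6%) and 4 lower (background 11.8%), counts near the background. Ifi27l2a had the smallest adjusted p there (1682 and 1901 CPM against 575 and 471 CPM, log2 difference 1.83, SE 0.14). Isg20 (2.76), Oas3 (2.47) and Ifit1 (2.02) had larger log2 differences there from fewer UMIs, and pDCs, in the reference, listed all 3 at 0. With pDCs left out, Isg20 (1.18) and Oas3 (1.37) stayed called in CD4 T cells. The calls of Ifit1 (0.55) and Rtp4 there were lost. In CD8 T cells 7 were higher (background 19.5%) and 7 lower (background 13.9%), and in B cells 5 higher (background 17.1%) and 7 lower (background 12.1%). The higher counts in both classes, of 29 members tested, were near the background. In B cells Isg15 stood at 24.6 and 28.9 CPM against 117 and 80.7 CPM (log2 difference -1.34, SE 0.20) and Ifih1 at 2.96 and 1.77 CPM against 16.5 and 13.9 CPM (-2.14). Several of the higher calls in lymphocytes turned on the presence of pDCs in the reference. With pDCs left out, CD8 T cells had 2 higher members (Ifi47 and Oas3) and 15 lower in place of 7 and 7 (background without pDCs 17.9% and 15.5%). The higher calls of Ifit1, Ifit3, Isg20, Rtp4 and Xaf1 there were lost. Of these genes, Ifit1, Ifit3 and Isg20 were listed at 0 in pDCs of both libraries, and Rtp4 and Xaf1 were not. Without pDCs, CD4 T cells had 4 higher and 9 lower members (background 17.3% and 13.3%), B cells 4 and 13 (background 18.2% and 14.2%), macrophages 9 and 1 (background 13.2% and 8.93%) and dendritic cells 14 and 2 (background 20.6% and 6.45%).

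Directly against CD4 T cells, CD8 T cells had 4 lower members (background 5.03%) and 0 higher (background 3.68%; 8 members had an unadjusted p under 0.05 in either direction). Ifi27l2a was lower in CD8 T cells by 1.23 on the log2 scale (SE 0.20, edgeR adjusted p = 1.06e-04). Slfn5, a schlafen family gene, stood at 4.92 and 4.24 CPM in CD8 T cells and 16.4 and 18.4 CPM in CD4 T cells (log2 difference -1.93, SE 0.38). Samhd1 (142 and 151 CPM against 239 and 254 CPM) and Ifih1 (3.51 and 5.15 CPM against 13.6 and 12.2 CPM) were the others. DESeq2's Wald test called 2 members lower in place of 4, without Slfn5 and Ifih1, and the edgeR fit without pDCs called 1 higher and 5 lower (background 5.35% and 6.32%).

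The age comparison asks how these transcripts stood in islet leukocytes at 7 and at 12 weeks. Since each age is a single library, no test was made, every interval covers counting error only, and a difference is one between these libraries. Ratios are given for the 4 classes with at least 50 cells at each age. The summed level was lower at 12 weeks in CD8 T cells (1949 and 1795 CPM, ratio 0.921, interval 0.880 to 0.964) and dendritic cells (2361 and 2152 CPM, ratio 0.911, 0.863 to 0.963). It was higher in CD4 T cells (2938 and 3205 CPM, ratio 1.09, 1.06 to 1.12) and B cells (1303 and 1597 CPM, ratio 1.23, 1.15 to 1.3). These are small steps beside the single genes below, and 2 of them changed direction when each cell counted in every class whose gate it met (1.01 in CD8 T cells and 1.07 in dendritic cells). Without Ifi27l2a and Bst2, the sum was 1082 and 935 CPM in CD8 T cells, 1154 and 1185 CPM in CD4 T cells, 888 and 1074 CPM in B cells, and 1665 and 1624 CPM in dendritic cells.

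**Figure D3:**
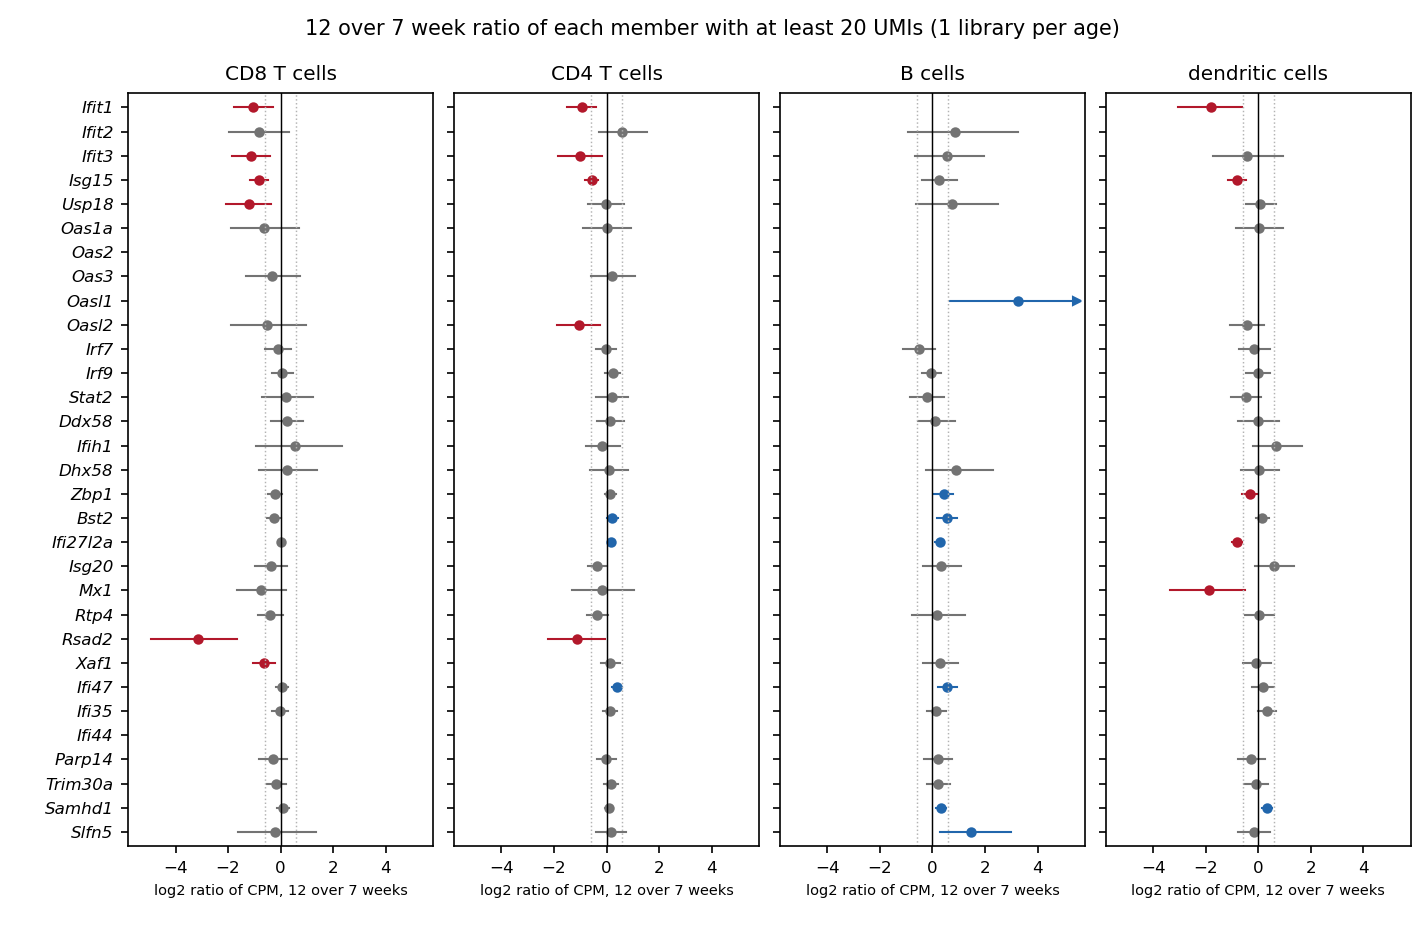
Ratio of the CPM at 12 weeks to that at 7 weeks (log2 axis) for each member with at least 20 UMIs in the class, with exact 95% intervals of counting error; red marks intervals below 1, blue intervals above 1, and dotted lines 1.5-fold. In CD8 T cells 6 intervals lie below 1 and 0 above, in B cells 7 lie above 1 and 0 below.

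In CD8 T cells 9 of 28 members with at least 20 UMIs were at least 1.5-fold lower at 12 weeks (background 9.54% of 8725 genes) and 0 were at least 1.5-fold higher (background 8.79%). By the interval, 6 lay below 1 (background 7.64%) and 0 above (background 7.2%). The 9 were Ifit1, Ifit2, Ifit3, Isg15, Mx1, Oas1a, Usp18, Rsad2 and Xaf1. The IFIT family, whose proteins bind viral RNA that lacks host cap methylation, summed to 52.7 and 25.7 CPM at the 2 ages (ratio 0.488, 0.354 to 0.675). Isg15 stood at 90.0 and 51.5 CPM (128 and 170 UMIs, ratio 0.572, 0.452 to 0.725). Rsad2 (viperin, an enzyme that makes a chain-terminating nucleotide) stood at 13.4 and 1.51 CPM, from 19 and 5 UMIs (ratio 0.113, 0.0331 to 0.314). Usp18 was at 17.6 and 7.57 CPM (25 and 25 UMIs, ratio 0.431, 0.237 to 0.782) and Ifit3 at 22.5 and 10.3 CPM (32 and 34 UMIs, ratio 0.458, 0.274 to 0.766).

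These UMIs were concentrated in few cells. At 7 weeks, the 5 CD8 T cells richest in each gene held 53.9% of the Isg15 UMIs, 68.8% of Ifit3, 68.0% of Usp18 and 100% of Rsad2. At 12 weeks, with 450 cells in place of 168, the 5 richest held 21.2%, 44.1%, 40.0% and 100%. The share of CD8 T cells with any Isg15 UMI was 23.8% at 7 weeks and 21.6% at 12 weeks. Members found in more of the cells had intervals that included 1: Ifi47, an interferon-inducible GTPase, stood at 157 and 162 CPM (ratio 1.04, 0.884 to 1.22), Samhd1 at 142 and 151 CPM (0.902 to 1.26) and Irf9, the DNA-binding subunit of the ISRE-binding complex, at 52.0 and 54.5 CPM (0.795 to 1.39).

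CD4 T cells showed lower IFIT and ISG15 levels at 12 weeks beside higher Ifi47 and Ifi27l2a. There 4 of 28 members were at least 1.5-fold lower (background 9.79%) and 1 at least 1.5-fold higher (background 7.39%), counts near or below the background, while 5 intervals lay below 1 (background 10.8%) and 3 above (background 8.65%). Ifit1 stood at 22.8 and 11.8 CPM (57 and 57 UMIs, ratio 0.517, 0.352 to 0.759), Ifit3 at 10.8 and 5.37 CPM (ratio 0.498, 0.279 to 0.886) and Oasl2 at 11.2 and 5.37 CPM (ratio 0.480, 0.270 to 0.849). Isg15 stood at 109 and 73.6 CPM (273 and 356 UMIs, ratio 0.674, 0.574 to 0.792). The 5 CD4 T cells richest in the IFIT family held 49.5% of its UMIs at 7 weeks, of 339 cells, and 28.3% at 12 weeks, of 809 cells. These 5 are a smaller part of the larger class, which lowers such a share by itself. For Isg15 and Usp18 together the 5 richest held 38.3% and 16.7%. On the other side, Ifi47 was at 144 and 191 CPM (ratio 1.32, 1.17 to 1.5), Ifi27l2a had a ratio of 1.13 (1.09 to 1.17) and Bst2 stood at 102 and 119 CPM (ratio 1.17, 1.0 to 1.36). The remaining member past 1.5-fold upward was Ifit2, from 15 and 44 UMIs, with an interval that included 1 (0.827 to 2.93). Endocrine transcripts in this class summed to 35.6 and 1603 CPM, and with haemoglobin, acinar and endocrine genes left out of the class total both counts stayed within 1.5 times.

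In B cells the members past 1.5-fold all lay on the higher side. There 5 of 22 members were at least 1.5-fold higher at 12 weeks (background 11.5% of 8397 genes) and 0 at least 1.5-fold lower (background 11.8%), and 7 intervals lay above 1 (background 9.47%) and 0 below (background 7.94%). Oasl1, which inhibits translation of Irf7, had 1 UMI at 7 weeks and 32 at 12 weeks (0.985 and 9.44 CPM, ratio 9.59, 1.60 to 390). Slfn5 had 6 and 56 UMIs (5.91 and 16.5 CPM, ratio 2.80, 1.21 to 7.94). Among the more abundant members, Ifi47 stood at 72.9 and 108 CPM (ratio 1.49, 1.15 to 1.93) and Bst2 at 69.0 and 101 CPM (ratio 1.46, 1.13 to 1.92). The IFIT family was low at both ages (11.8 and 19.2 CPM, 12 and 65 UMIs) and its interval included 1 (0.869 to 3.30).

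In dendritic cells 5 intervals lay below 1 (background 8.27% of 7858 genes) and 1 above (background 9.57%). There 4 of 25 members were at least 1.5-fold lower (background 12%) and 2 at least 1.5-fold higher (background 13.6%), counts near or below the background. The lower members were Isg15 (170 and 96.2 CPM, ratio 0.565, 0.45 to 0.711), Ifi27l2a (449 and 254 CPM, ratio 0.567, 0.493 to 0.652), Ifit1 (21.0 and 5.98 CPM, 17 and 11 UMIs, ratio 0.285) and the dynamin-like antiviral GTPase Mx1 (16 and 4.35 CPM, 13 and 8 UMIs, ratio 0.271). The higher ones were Isg20 and Ifih1, with intervals that included 1. The 5 dendritic cells richest in the IFIT family held 58.6% of its UMIs at 7 weeks, of 54 cells, and 35.9% at 12 weeks, of 145 cells. For Isg15 and Usp18 together the 5 richest held 50.6% and 20.5%. With cells counted in every gate they met, 1 member was lower in place of 4. T cell markers in this class summed to 510 and 98.9 CPM, endocrine transcripts to 51.8 and 15056 CPM, and their part in these differences was not tested. In bulk sums of this kind, fewer interferon-responsive cells and less RNA per cell cannot be told apart, so the cells were also counted.

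Cells with at least 3 UMIs of Ifit1, Ifit3 and Isg15 together, called ISG-high here, were found in each class in the deposited counts. Since deeper cells reach 3 UMIs more easily, shares are given first with each cell thinned to 3000 UMIs. Of CD8 T cells, 5 of 160 at 7 weeks (3.13%, exact 95% interval 1.02 to 7.14) and 12 of 450 at 12 weeks (2.67%, 1.39 to 4.61) were ISG-high. Of CD4 T cells, 12 of 326 (3.68%, 1.92 to 6.34) and 14 of 809 (1.73%, 0.949 to 2.89) were, a difference of -1.95 percentage points (Newcombe interval -4.68 to -0.0081). The share was 1 of 163 (0.613%) and 6 of 626 (0.958%) in B cells, and 4 of 54 (7.41%, 2.06 to 17.9) and 6 of 145 (4.14%, 1.53 to 8.79) in dendritic cells. No thinned pDC qualified, 0 of 24 and 0 of 42, which allows shares of up to 12.5% and 7.14% by the limit of 3 counts (the exact intervals reach 14.2% and 8.41%).

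In the deposited counts the shares were 9.52% and 4.67% in CD8 T cells (16 of 168 and 21 of 450, difference -4.86 points, -10.5 to -0.571) and 6.78% and 4.94% in CD4 T cells (23 of 339 and 40 of 809). They were 0.595% and 1.60% in B cells (1 of 168 and 10 of 626) and 27.8% and 17.2% in dendritic cells (15 of 54 and 25 of 145), whose median depth was 14162.5 and 12383 UMIs against 6166 and 5368 in CD8 T cells. The interval of the CD8 T difference left out 0 in the deposited counts and included it in thinned counts (-0.458 points, -4.60 to 2.17), and for CD4 T cells it was the reverse, so neither interval left out 0 on both scales. In thinned CD4 T cells a minimum of 5 UMIs gave -1.90 points (-4.34 to -0.307) and a minimum of 2 gave -1.80 points (-5.31 to 1.03). In thinned dendritic cells a minimum of 5 gave -6.72 points (-16.9 to -1.25) and a minimum of 2 gave -8.39 points (-21.0 to 1.10).

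**Figure D4:**
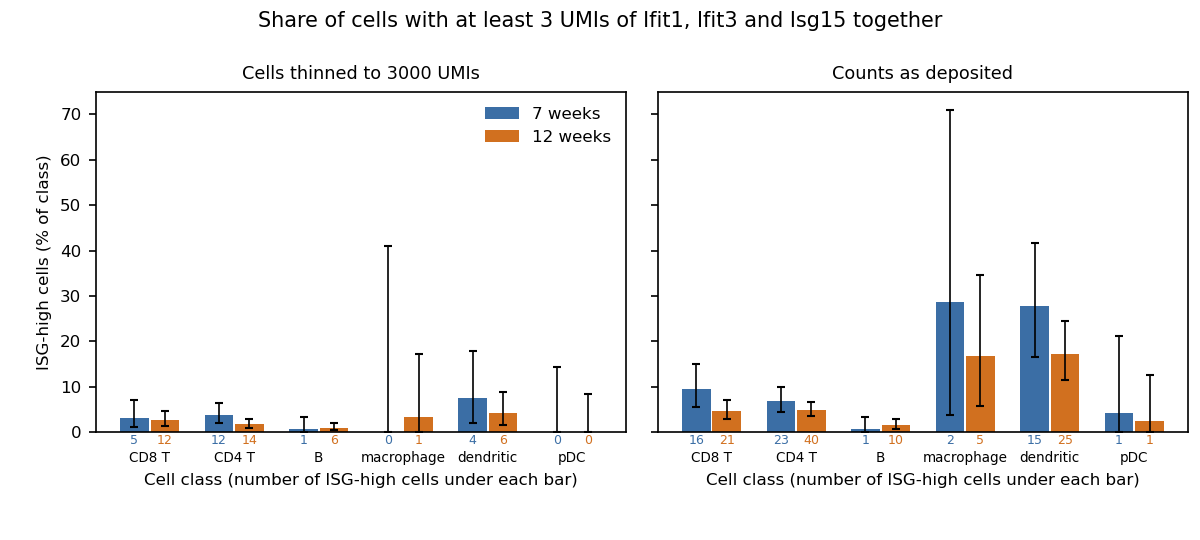
Share of each class that was ISG-high at 7 and 12 weeks (bars, percent of cells), with exact 95% binomial intervals, in cells thinned to 3000 UMIs (left) and in the deposited counts (right); the number under each bar counts ISG-high cells. Dendritic cells have the tallest thinned bars at both ages, 7.41% and 4.14%, and the intervals of the 2 ages overlap in each class.

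UMIs of the 3 genes define ISG-high cells, so the share these cells held is raised by the definition and is a description only. In CD8 T cells 81.1% of these UMIs at 7 weeks lay in 16 of 168 cells, and 52.1% at 12 weeks in 21 of 450. In CD4 T cells it was 77.9% in 23 of 339 cells and 50.8% in 40 of 809. The highest cell held 32 UMIs of the 3 genes among CD8 T cells and 39 among CD4 T cells at 7 weeks, and 15 and 24 at 12 weeks, while 122 of 168 and 335 of 450 CD8 T cells held none.

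The other members were measured in ISG-high cells of the 6 classes (58 at 7 weeks and 102 at 12 weeks) against the level predicted from the other cells of the same class and library. Of 27 other members with at least 20 UMIs, 20 were at least 2-fold higher in both libraries, against 129 of 11566 genes (background 1.12%). The median ratio of these members was 3.26 at 7 weeks and 3.67 at 12 weeks, beside 0.969 and 0.975 over all genes. ISG-high was set by 3 member genes, so a shared response was part of how the cells were picked, and the counts are a description with no test.

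By the lower of its 2 ratios Rsad2 ranked first, with 27.8 at 7 weeks (40 UMIs in ISG-high cells and 6 in the others). At 12 weeks its ratio was 9.64 (17 and 13 UMIs), below those of Oas3 and Mx1. At 7 weeks 15.5% of ISG-high cells and 0.855% of the other cells held an Rsad2 UMI. Oas3, a sensor of long double-stranded RNA, had ratios of 9.36 and 11.5, Mx1 6.23 and 10.3, and Oasl1 5.46 and 8.40. Rtp4 was enriched in more of the cells: its ratios were 5.0 and 5.21, and 65.5% and 48.0% of ISG-high cells held a UMI against 10.5% and 10.4% of the others. Unlike the ratios, these shares of cells, for Rsad2 as for Rtp4, were not adjusted for class or depth. Over all kept cells, ISG-high cells had a median depth of 7802.5 and 8160 UMIs, against 5555 and 4870.5 in the others. Usp18 (4.29 and 4.08), Oasl2 (3.73 and 8.21) and Slfn5 (3.66 and 3.67) completed the leading 8.

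The transcription factors divided. Irf7 had ratios of 3.49 and 4.16, while Stat2 (1.25 and 2.14) and Irf9 (1.57 and 1.02) were not 2-fold higher in both libraries. Among the sensors, Ifih1 (7.46 and 3.36), Dhx58 (3.30 and 4.12) and Zbp1 (3.71 and 3.31) passed, and Ddx58 (RIG-I; 2.02 and 1.99) ended just under 2. The abundant members divided as well. Zbp1 and Ifi47 (2.55 and 2.01) passed, while Bst2 had ratios of 1.55 and 1.80, Samhd1 1.76 and 1.72, Ifi35 2.0 and 1.66, and Ifi27l2a 1.46 (1.36 to 1.57) at 7 weeks and 3.0 (2.87 to 3.14) at 12 weeks. For Ifi27l2a the 2 intervals did not overlap, and a difference between these libraries was not tested beyond counting error. With CD4 T and CD8 T cells alone, 17 of 25 members passed (background 1.1%), Bst2 (2.20 and 2.85) and Ifi35 (2.37 and 2.44) among them. With dendritic cells alone 8 of 22 passed (background 1.36%). Of the leading 8 above, Rtp4 passed there (2.27 and 4.52). Usp18 (1.10 and 1.80), Oasl2 (1.41 and 9.55), Mx1 (2.04 and 0) and Slfn5 (2.68 and 1.95) did not, though they passed in T cells. Rsad2, Oas3 and Oasl1 had too few UMIs in dendritic cells to be counted.

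**Figure D5:**
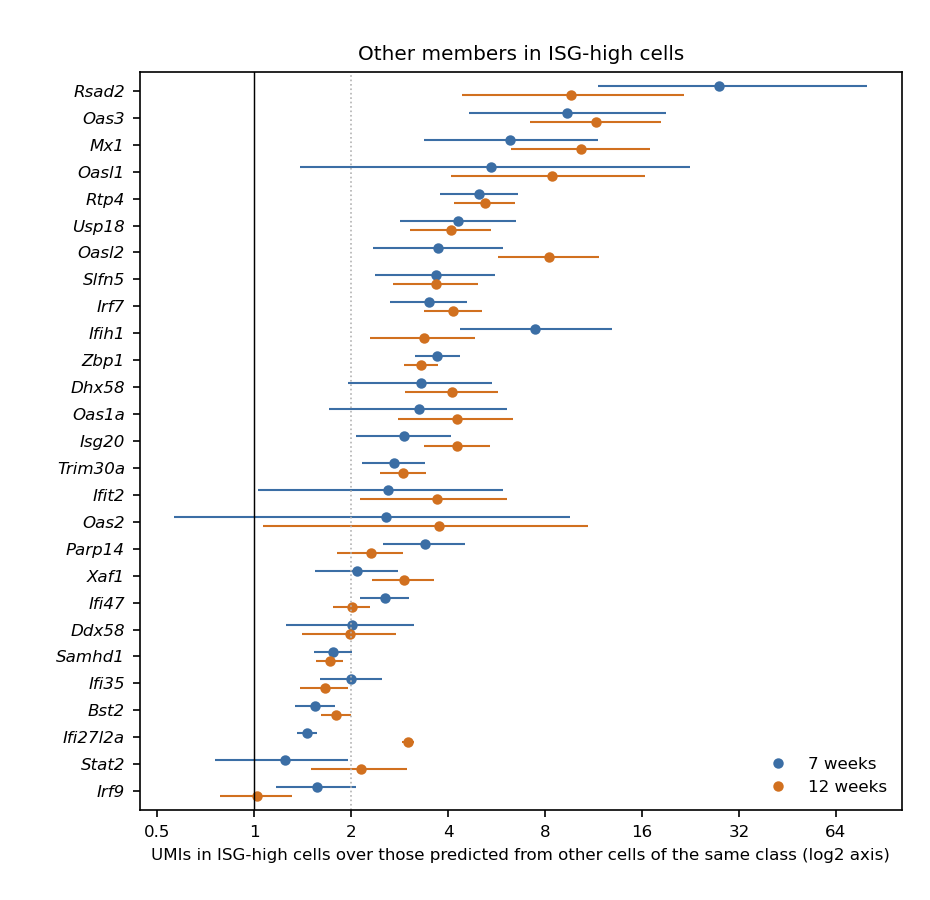
UMIs of each other member in ISG-high cells divided by the number predicted from the other cells of the same class and library (log2 axis), at 7 and 12 weeks, with exact 95% intervals of counting error; the dotted line marks 2-fold. Rsad2 leads at 7 weeks with 27.8 and by the lower of the 2 ratios with 9.64, while Oas3 and Mx1 lie higher at 12 weeks. Bst2, Samhd1 and Irf9 stay under 2 at both ages.

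Among the 5823 genes outside the 31 with at least 10 UMIs in ISG-high cells of each library, the 10 steepest by the lower of the 2 ratios included the interferon-induced nucleotide kinase gene Cmpk2 (7.03 and 8.14), Phf11c (3.72 and 4.16) and Pyhin1 (3.45 and 3.23). The chemokine gene Ccl22 (9.04 and 17.7) was in 3.45% of 58 and 3.92% of 102 ISG-high cells, where it had 54 and 67 UMIs. Of these UMIs, dendritic cells held 54 and 41. Il1rn (5.75 and 3.79), the interleukin 1 receptor antagonist gene, was in 10.3% and 11.8% of ISG-high cells. In T cells both genes had too few UMIs to be compared. The other 5 of the leading 10 were Gm4955, Melk, BC094916, Chil1 and Gda.

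Of the interferon-stimulated genes that are not among the 31, 11 of 33 measured were at least 2-fold higher in ISG-high cells of both libraries (background 1.12% of all counted genes, here and for the lists that follow), among them the near copy Ifit3b (23.7 and 25.6, from 13 and 8 UMIs in ISG-high cells, under the minimum of 10 at 12 weeks used above), whose reads overlap in sequence with those of Ifit3, and Eif2ak2 (4.39 and 2.18), the kinase PKR. Of the interferon gamma targets 5 of 18 passed, namely Gbp2, Gbp5, Gbp7, Iigp1 and Cxcl9. The median ratio of these targets was 2.32 at 7 weeks and 1.56 at 12 weeks, and 0 of them lay below 1 in both libraries. Of the receptor and signalling genes 0 of 12 passed, with a median ratio of 1.07 and 1.06, and of the sensors and adaptors 1 of 11 (Ifi203).

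Few UMIs of type I interferon genes were found. In the whole of both libraries none of the 13 interferon alpha genes listed had a UMI, and Ifnb1 had 0 UMIs at 7 weeks and 4 at 12 weeks, in 1 dendritic cell. Ifnk (interferon kappa) had 4 UMIs in 4 cells and 21 UMIs in 21 cells, spread over several classes. A count of 0 allows up to 0.273% of cells at 7 weeks and 0.109% at 12 weeks with a UMI. Interferon gamma, the type II interferon, was plentiful by comparison: Ifng had 999 UMIs in 302 cells at 7 weeks and 1541 UMIs in 486 cells at 12 weeks. In CD4 T cells Ifng stood at 196 and 106 CPM (ratio 0.540, 0.476 to 0.612) and in CD8 T cells at 174 and 158 CPM (ratio 0.905, 0.777 to 1.06).

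Both receptor genes were higher in pDCs. There Ifnar2 stood at 339 and 542 CPM against 94.9 and 86.7 CPM (log2 difference 2.29, SE 0.15), Ifnar1 at 158 and 189 CPM against 55.4 and 55.7 CPM (log2 difference 1.59, SE 0.19), and Tlr7, the endosomal sensor of single-stranded RNA, at 58.9 and 131 CPM (log2 difference 5.39, SE 0.42). Irf8, a transcription factor that pDCs depend on, stood at 2352 and 3690 CPM. Over the 12 receptor and signalling genes, 4 were higher and 2 lower in pDCs (background 10.9% and 5.58%), 6 higher and 1 lower in macrophages (12% and 7.22%), and 3 higher and 2 lower in dendritic cells (18% and 5.38%). Of 11 sensors and adaptors tested, beside the same background, 1 was higher and 3 lower in pDCs, 3 were higher and 1 lower in macrophages, and 4 were higher and 1 lower in dendritic cells.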

How the data were processed

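The deposited matrices hold whole UMI counts per gene and barcode, made by the authors with Cell Ranger 1.3.1 on mm10, per the submitters' processing notes; the gene annotation is not given in the sources used here. Of 1113 barcodes (8701184 UMIs) at 7 weeks and 2812 (19288252 UMIs) at 12 weeks, those with under 200 genes or over 10% mitochondrial UMIs were removed (4 and 8), as were the highest doublet scores (10 and 63). Scores followed the Scrublet method, with 2 simulated doublets per barcode and a rate of 0.8% per 1000 barcodes. The libraries shared 2 barcodes. Cells meeting more than 1 gate (57 and 142) counted as macrophage over dendritic, pDC over dendritic, and myeloid or pDC over T cell where no Cd3 UMI was found; the rest (36 and 77) were left out.

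Counts were summed per class and library. Class differences used edgeR 4.0.16 (quasi-likelihood, TMM, Benjamini-Hochberg over all genes tested) in R 4.3.3, with DESeq2 1.42.0 as an alternative. On simulated data, 74.5% of 200 genes changed 4-fold in the pDC comparison were recovered among 9506 genes. Age ratios carry exact 95% intervals of counting error and need 20 UMIs. Python 3.11.15, numpy 2.4.6, scipy 1.17.1, pandas 2.3.3, scikit-learn 1.9.0 and matplotlib 3.10.9 did the rest. A limit for a count of 0 is 3 counts. Genes were named by rule: the 5 members with most UMIs per class, up to 4 per side and class whose age interval lay furthest from 1, members called between classes, and in ISG-high cells the 8 members, and the 10 other genes with at least 10 UMIs in ISG-high cells of each library, with the highest lower ratio; the remaining named genes were chosen after their values were seen. The members, lists and alternatives were chosen with earlier results of these data known.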

Additional observations from a re-analysis of the deposited data

Results flagged for a closer look

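The ratio of 12 to 7 weeks lay on opposite sides of 1 in different classes for 3 sums, with intervals of counting error that left out 1, and the difference between classes was not tested. The sum of all 31 members had ratios of 0.921 in CD8 T cells and 0.911 in dendritic cells, against 1.09 in CD4 T cells and 1.23 in B cells. The sum of Bst2 and Ifi27l2a had a ratio of 0.757 in dendritic cells, against 1.13 in CD4 T cells and 1.26 in B cells. The sum of 12 other effectors had a ratio of 0.914 in CD8 T cells, against 1.09 in CD4 T cells, 1.25 in B cells and 1.12 in dendritic cells.

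Cells that met no gate, which no class comparison used, also held ISG-high cells: 1.81% of 277 thinned cells at 7 weeks and 1.78% of 562 at 12 weeks.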

How the results depend on the processing

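Of 227 alternative values over 31 results, 179 kept their direction and size, 46 moved and 2 reversed; except where the alternative's construction shows it (fewer cells, classes or genes), the cause was not tested. The summed age ratio reversed with gates exactly as worded, to 1.01 in CD8 T cells and 1.07 in dendritic cells. As a mean over cells it was 0.820 in CD8 T and 1.05 in CD4 T cells, and thinned 1.05 in CD4 T cells. Without Ifi27l2a and Bst2, an alternative chosen after seeing the data, it was 0.865 in CD8 T, 1.03 in CD4 T and 0.976 in dendritic cells. Members past 1.5-fold moved with gates as worded to 1 higher in CD8 T cells, 9 higher in B cells and 1 lower in dendritic cells. Over all barcodes, and with median ratio scaling, 1 was higher in dendritic cells. With at least 10 UMIs 8 were higher in B cells; with at least 50 UMIs, 5 were lower in CD8 T, 2 higher in B and 2 lower in dendritic cells; with at least 1 UMI, 1 was higher in CD8 T cells, 8 higher and 4 lower in B cells, and 8 lower in dendritic cells. The unthinned ISG-high difference in CD8 T cells was -4.86 points.

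Class calls moved without pDCs (also chosen after seeing the data) to 2 higher and 15 lower in CD8 T cells, 9 lower in CD4 T, 13 lower in B, 1 lower in macrophages, 2 lower in dendritic cells and 1 higher in CD8 against CD4 T cells. With cells of more than 1 gate left out they moved to 3 lower in CD8 T, 1 lower in CD4 T, 3 higher and 1 lower in B cells, 0 higher in macrophages and 4 lower in pDCs. With no filter, 10 were higher in CD4 T cells and 2 in CD8 against CD4 T cells; without macrophages, 10 were higher in CD4 T and 2 lower in dendritic cells. DESeq2's Wald test gave 3 higher in B cells and 2 lower in CD8 against CD4 T cells; all barcodes, and DESeq2 size factors, gave 2 lower in dendritic cells.

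The class fit holds the library as a block. With no replicate block, members lower numbered 4 in CD8 T, 2 in CD4 T, 4 in B cells, 9 in pDCs and 2 in CD8 against CD4 T cells. No paired analysis was possible because each age has 1 library, and leaving out a library leaves no residual degrees of freedom. Depth limits members under 20 UMIs, and macrophages and pDCs, which have under 50 cells at each age.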
